A study of Saccharomyces cerevisiae with 3 samples.

Results

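The genes described are those for the proteins of the large subunit of the cytosolic ribosome in Saccharomyces cerevisiae. They were taken as the rows whose standard yeast symbol is RPL followed by a number and an optional A or B, or RPP0, RPP1A, RPP1B, RPP2A or RPP2B. The RefSeq gene table held 81 such genes, and 79 of them had a row among the 6207 open reading frames (ORFs) of the deposited table. RPL29 and RPL36B were not analysed here. The data compare caspofungin-treated with untreated yeast of the strain MID2extWSC1cyt in the BY4741 background, grown in YEPD at 24 °C, where every culture carried the chimeric sensor. Treated cells received caspofungin, an echinocandin that inhibits the enzyme making the β-1,3-glucan of the cell wall, at 15 ng/ml for 2 h, and untreated cells came from the same culture without the drug. By its name the strain joins the outer part of the wall sensor Mid2 to the cytoplasmic part of Wsc1, and no source used here says how the chimera is expressed. Total RNA of both conditions was hybridized together on 2-colour arrays, with 2 cultures and 4 arrays in the study design, of which arrays 1, 2 and 4 were analysed here.

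The RNA of treated cells was labelled with Cy5 on arrays 2 and 4 but with Cy3 on array 1. Arrays 2 and 4 share a dye orientation and therefore differ in culture, and array 1 shares a culture with one of them. Each value is a log2 ratio of the 2 channels. The labels do not state its direction. Array 1 correlated positively over all ORFs with array 2 (Pearson r = 0.436, 2818 ORFs) and with array 4 (r = 0.394, 745 ORFs), and was therefore taken as already turned to their direction. That correlation bears on whether array 1 runs the same way as the others, and not on whether the shared direction is treated over untreated, which stays unknown. A gene-specific dye effect would give the same positive correlation. Signs therefore refer to the deposited scale throughout. The arrays differed in spread and coverage. Array 1 measured 60.4% of ORFs with an SD of 0.809, array 2 measured 45.6% with an SD of 0.436, and array 4 measured 13.8% with an SD of 1.55. Of the 6 a-specific genes that mark the mating type of BY4741, 4 had a value on arrays 1 and 2, and the 4 alpha-specific genes were empty on all 3 arrays.

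The large subunit of the ribosome holds the peptidyl transferase centre, which is made of RNA, and the tunnel through which the new protein leaves. Its proteins fold and hold the rRNA, form the stalks that bind translation factors and tRNA, and surround the tunnel exit. In budding yeast most of them are encoded by an A and a B copy left by an ancient genome duplication. Their genes are among the most strongly transcribed in growing cells, are driven by Rap1, Fhl1 and Ifh1, and respond as a group to TOR and protein kinase A signalling.

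The large subunit genes were measured more often than the ORFs as a whole, and so were the small subunit genes. Of the 79, 65 (82.3%) had a value on array 1, 61 (77.2%) on array 2 and 50 (63.3%) on array 4. In all, 44 had a value on every array, 18 on 2 arrays, 8 on 1 array and 9 on none. The 9 were RPL20B, RPL21B, RPL22B, RPL23A, RPL31B, RPL32, RPL33B, RPL41A and RPL41B. Of the members on arrays 1 and 2, 72.1% also had a value on array 4, against 25.7% of all ORFs on arrays 1 and 2. Of the small subunit genes, 82.1%, 80.4% and 75% had a value on arrays 1, 2 and 4. Of the genes for 60S assembly and export, 90.3%, 82.3% and 16.1% had one. The sources used here do not give the filter behind an empty cell, so an empty cell is not read as absence of the mRNA.

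Most large subunit genes had small negative values on arrays 1 and 2, and array 4 spread them widely to both sides of 0. On array 1, 12 of 65 were positive (18.5%), beside 36.1% of all ORFs of that array. The members' median there was −0.26, beside −0.24 over all ORFs. On array 2, 9 of 61 were positive (14.8%), beside 33.4%, with a median of −0.22, beside −0.14 over all ORFs. On array 4, 17 of 50 were positive (34%), beside 19.1%, with a median of −0.28, beside −0.93 over all ORFs. The members therefore lay near the middle of array 1, below the middle of array 2 and above the middle of array 4, at median percentiles of 48.7, 39.6 and 74.3 among the ORFs of each array. Their spread was narrower than that of all ORFs on arrays 1 and 2, with SDs of 0.409 and 0.225, and was about as wide on array 4, with an SD of 1.52. Of the 50 members on array 4, 14 were among its highest 10% of ORFs and 1 was among its lowest 10%. On array 1 none of the 65 was among the highest 10% and 1 was among the lowest.

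**Figure D1:**
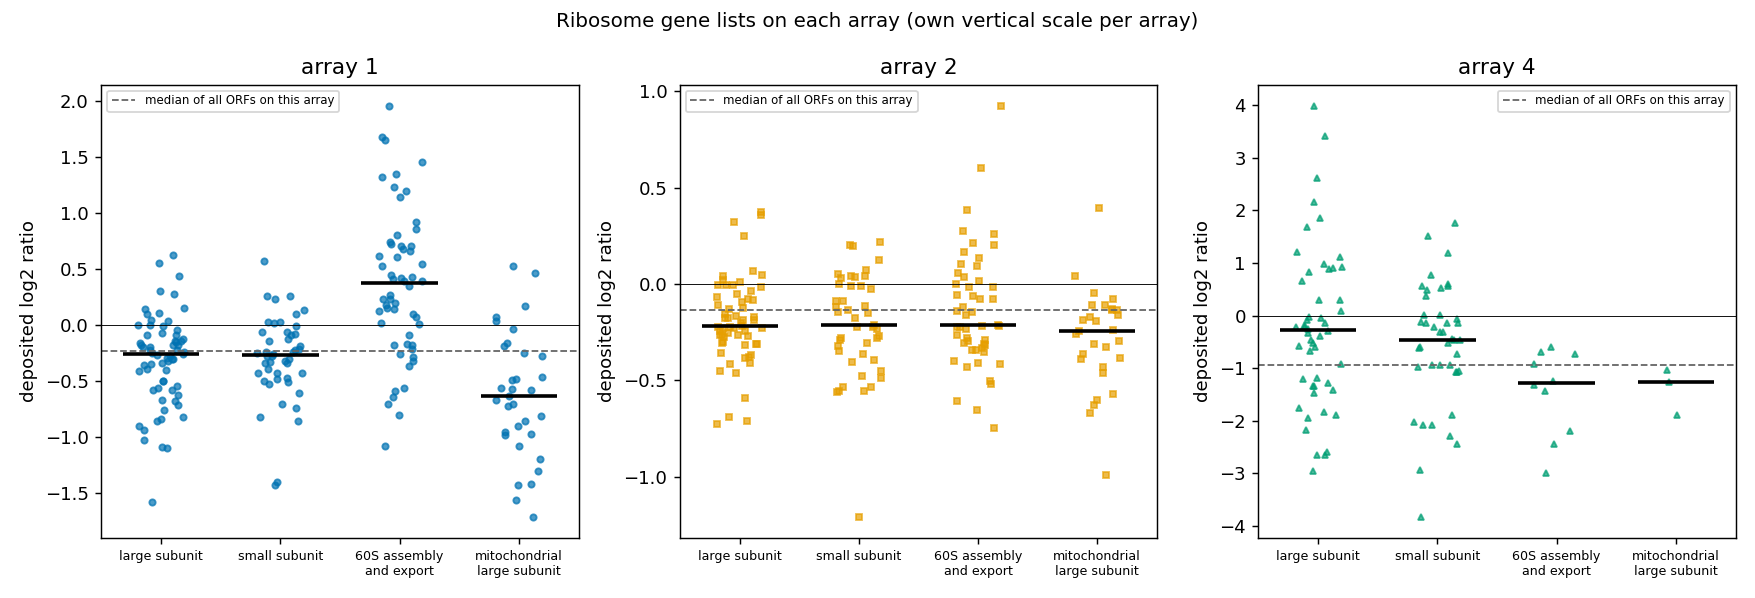
Deposited log2 ratios on arrays 1, 2 and 4 for the large subunit, small subunit, 60S assembly and mitochondrial large subunit genes, 1 point per gene, with black bars at the list medians and a dashed line at the median of all ORFs of that array. The large subunit median is −0.26 on array 1, −0.22 on array 2 and −0.28 on array 4, where the points run from −2.96 to 4.00.

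No large subunit gene passed the test across the table. The test was limma on the 723 ORFs measured on all 3 arrays, with a term for caspofungin and a term for the dye, and it called 0 of the 44 members at an adjusted p under 0.05, where 2 of all 723 ORFs were called (0.277%). None of the 44 had an unadjusted p under 0.05 either, beside 23 of the 723 ORFs. The fitted value weighs the mean of arrays 2 and 4 equally with array 1. Its standard error was 0.727 for every gene, because the moderation replaced each gene's own spread, with 1 residual degree of freedom, by a common SD of 1.19. With the caspofungin and dye terms array 1 is fitted exactly, so the residual comes only from arrays 2 and 4, which differ in culture. The p-values therefore measure the spread between those 2 arrays, and hold no spread of array 1. Of the 44 members, 12 had a fitted value above 0 (27.3%) and 32 below, with a median of −0.21, while 26.6% of all ORFs tested were above 0, with a median of −0.36. With each array centred on its median, 32 of the 44 were above 0 (median 0.18), beside 51.7% of all ORFs, so the sign of the group's median depended on the centring. Without array 4, 6 of 61 members were above 0 (9.84%), beside 33.2% of all ORFs.

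Signs agreed across the arrays for 25 of these genes. Of the 44, 22 (50%) were negative on all 3 arrays, beside 45.4% of all ORFs tested, and 3 (6.82%) were positive on all 3, beside 7.61%. A fitted value of at least 2-fold with a negative sign on every array was found for 3 members (6.82%), beside 10.4% of all ORFs. The same with a positive sign was found for 1 member (2.27%), beside 2.77%. After median centring, 9 of the 44 (20.5%) were positive on all 3 arrays, beside 25.3% of all ORFs, and 7 (15.9%) were negative on all 3, beside 20.9%. The 9 were RPL2B, RPL3, RPL4A, RPL8B, RPL10, RPL15A, RPL15B, RPP0 and RPP2A, and the 7 were RPL13A, RPL16B, RPL27A, RPL27B, RPL37A, RPL40A and RPL43A. On either scale the members' shares lay near those of the whole table. Signs given for single genes in what follows are on the deposited scale, on which 0 lies above the median of every array.

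**Figure D2:**
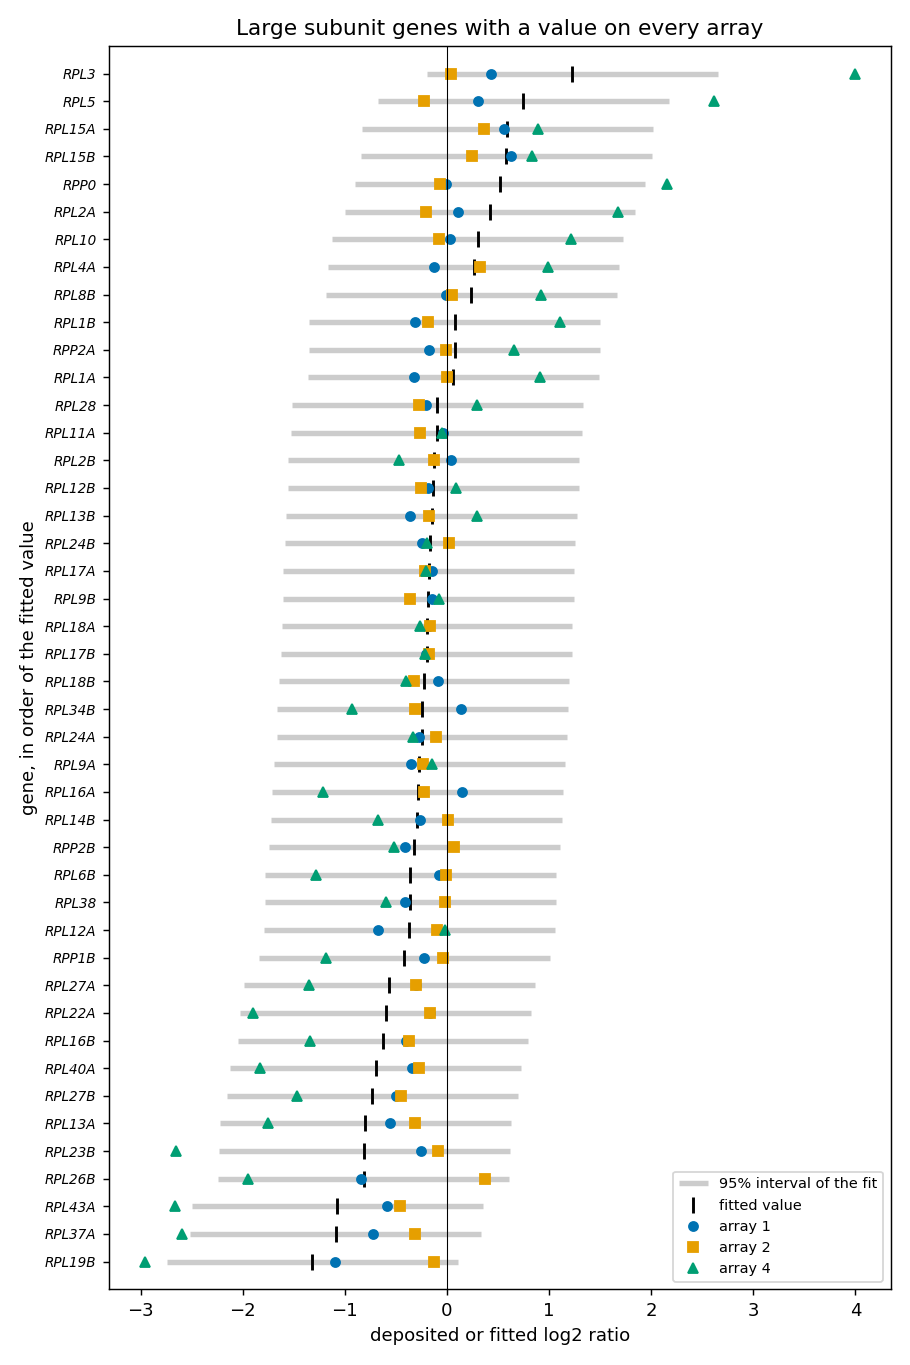
Log2 ratios of the 44 large subunit genes with a value on every array, in order of the fitted value, with circles for array 1, squares for array 2, triangles for array 4, black ticks for the fitted value and grey bars for its 95% interval. Every interval spans 0, and the triangles of array 4 run from −2.96 for RPL19B to 4.00 for RPL3.

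The genes for proteins that reach towards the catalytic centre included RPL3, which had the highest fitted value of the 44. RPL3, a single-copy gene whose protein extends to the peptidyl transferase centre, had 0.43, 0.04 and 4.00 on arrays 1, 2 and 4. It was positive on every array but near 0 on array 2, and its fitted value of 1.23 (95% interval −0.20 to 2.65, limma adjusted p = 0.868) rested on array 4, since it was 0.24 without that array. With array 1 turned to the other sign it was 0.79. RPL10, whose protein joins late and completes the tRNA binding site, had 0.03, −0.08 and 1.21. RPL2A had 0.10, −0.20 and 1.68 (fitted 0.42), while its copy RPL2B had 0.04, −0.13 and −0.47 (fitted −0.13). All 4 genes of this role were positive on array 1, at 0.03 to 0.43, while the other roles held 8 of the 12 positive members there.

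The 5S ribonucleoprotein is built from the 5S rRNA with Rpl5 and Rpl11. RPL5 had 0.30, −0.23 and 2.62 on arrays 1, 2 and 4, which gave a fitted value of 0.75 (SE 0.73, limma adjusted p = 0.887), and 0.04 without array 4. With array 1 turned it was 0.45, below the 0.52 of RPP0. RPL11A had −0.04, −0.26 and −0.05, and RPL11B had a value on array 4 only, −0.29. RPL5 and RPL11A thus lay far apart on array 4 and closer on the other arrays.

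Among the stalk genes the values on array 4 ran from 2.15 for RPP0 to −1.18 for RPP1B. RPP0, the base protein on which the stalk is built, had −0.005, −0.07 and 2.15, with a fitted value of 0.52 that became −0.035 without array 4. The genes for the acidic proteins that hang from it were lower than RPP0 on arrays 1 and 4, and those measured on array 2 were higher than it there. RPP2A had −0.18, −0.01 and 0.66 (fitted 0.075), RPP2B had −0.41, 0.07 and −0.52 (fitted −0.32), and RPP1B had −0.23, −0.04 and −1.18. RPP1A had a value on array 1 only, −1.58, the lowest of the 65 members there. RPL12A and RPL12B, for the protein at the stalk base, lay between −0.68 and 0.09 on all arrays. None of the 7 stalk genes was positive on array 1, and 3 of 6 were on array 4. The L1 stalk, on the side where tRNA leaves, is made by RPL1A and RPL1B, which were near −0.32 and −0.31 on array 1 and at 0.91 and 1.11 on array 4, with fitted values of 0.064 and 0.076.

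Genes for the exit tunnel and its rim were on the negative side of array 1. All 11 that had a value there were negative, from −1.10 to −0.13, with a median of −0.76, and 8 of 10 were negative on array 2. Most members were negative on these arrays, 53 of 65 on array 1 and 52 of 61 on array 2. Of all ORFs, 36.1% and 33.4% were positive there. RPL19B, for a protein that spans from the tunnel exit to the small subunit, had −1.09, −0.13 and −2.96 on arrays 1, 2 and 4. Its fitted value of −1.32 (95% interval −2.74 to 0.11, limma adjusted p = 0.868) was the lowest of the 44, and it was −0.61 without array 4. With array 1 turned it was −0.23, and RPL23B, RPL43A and RPL37A lay below it at −0.56, −0.49 and −0.37. RPL19A matched it on the arrays they share, with −0.94 and −0.18 on arrays 1 and 2. RPL26B had −0.85, 0.37 and −1.95 (fitted −0.82), so its sign differed between arrays, and RPL26A had −0.55 and −0.27 on arrays 1 and 2. RPL25, the docking site of factors that meet the nascent chain, had −0.63 and −0.38 on arrays 1 and 2. RPL35A and RPL35B, at the same rim, had −0.76 and −0.86 on array 1 and −0.22 and −0.59 on array 2. RPL39, a very small protein of the tunnel wall, had −1.10 on array 1 only. RPL31A had a value on array 4 only, −2.18. RPL17A and RPL17B, whose protein reaches into the tunnel, were nearly the same on every array, between −0.22 and −0.15, with fitted values of −0.18 and −0.20. RPL4A and RPL4B, for the protein whose loop lines the tunnel, were the exception on array 4, with 0.99 and 3.41. RPL4A had −0.13 and 0.32 on arrays 1 and 2, and RPL4B had no value there.

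The measured genes for bridges to the small subunit and for the ubiquitin fusions were negative with 1 exception, RPL24B at 0.02 on array 2. So were most members, 53 of 65 on array 1, 52 of 61 on array 2 and 33 of 50 on array 4. The bridge genes RPL41A and RPL41B had no value on any array. RPL24A had −0.27, −0.11 and −0.33 on arrays 1, 2 and 4, and RPL24B had −0.25, 0.02 and −0.20. RPL30, whose protein represses the splicing of its own transcript, had −1.03 and −0.39 on arrays 1 and 2. RPL40A, made as a fusion of ubiquitin to a ribosomal protein, had −0.34, −0.27 and −1.83, and RPL40B had −0.91 and −0.05 on arrays 1 and 2.

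Among the 42 remaining members, which bind rRNA in the body of the subunit, 22 were measured on every array, 3 with a fitted value above 0 and 19 below. Of all 44 members on every array 12 were above 0, as were 26.6% of the 723 ORFs tested. RPL15A and RPL15B, the copies for a protein deep in the rRNA core, were positive on every array. RPL15A had 0.56, 0.36 and 0.89 and RPL15B had 0.62, 0.25 and 0.83 on arrays 1, 2 and 4, with fitted values of 0.59 and 0.58 (SE 0.73 each). They held the 2 highest values of all 65 members on array 1, and with RPL3 they were the 3 members positive on all arrays. Without array 4 their values were 0.46 and 0.44, and with array 1 turned they were 0.034 and −0.042. At the other end lay RPL37A and RPL43A, for small zinc-binding proteins. RPL37A had −0.72, −0.31 and −2.60 (fitted −1.09, or −0.52 without array 4), and RPL43A had −0.58, −0.46 and −2.66 (fitted −1.07, or −0.52 without array 4). Both were negative on every array, as were RPL13A, with −0.56, −0.31 and −1.76 (fitted −0.80), and RPL23B, with −0.25, −0.09 and −2.65 (fitted −0.81).

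The single-copy genes of the body that had values, RPL28 and RPL38, lay between −0.60 and 0.30. RPL28, known as CYH2 because its mutation gives cycloheximide resistance, had −0.20, −0.27 and 0.30, and RPL38 had −0.41, −0.02 and −0.60. RPL32 was empty on all 3 arrays. Among the body genes with an A and a B copy, RPL22A, whose protein is dispensable for growth, had −0.16, −0.17 and −1.90. RPL8B, for a protein that binds early precursors, had −0.01, 0.05 and 0.92, and its copy RPL8A had 1.86 on array 4 only.

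The A and B copies of a gene usually had similar values. The gene table holds 33 RPL pairs, and the RPP1 and RPP2 pairs, whose members encode related but distinct acidic proteins. Both copies were measured on all 3 arrays for 12 of the 35 pairs, on 2 arrays for 9, on 1 array for 6 and on none for 8. On array 4 the median absolute difference between copies was 0.13 over 17 pairs, against 1.41 over the 1208 pairs of members that are not copies of each other. On array 1 it was 0.20 over 23 pairs, against 0.37, and on array 2 it was 0.14 over 20 pairs, against 0.20. For the fitted values it was 0.13 over 12 pairs, against 0.48. Copies with nearly the same sequence can hybridize to each other's spots, so a pair is closer to 1 observation than to 2. Pearson's r between A and B copies was 0.437, 0.468 and 0.554 on arrays 1, 2 and 4, as a description over pairs that share their arrays.

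Some pairs disagreed, and most of the large gaps lay on array 4. The smallest differences in fitted value were those of RPL15 (0.01, A minus B), RPL1 (−0.01) and RPL17 (0.02). The largest were those of RPL13 (−0.65), RPL2 (0.55) and RPP2 (0.39). RPL13A and RPL13B differed by −2.05 on array 4, where they had −1.76 and 0.30, but by −0.20 and −0.14 on arrays 1 and 2, and RPL13B had a fitted value of −0.15. RPL2A and RPL2B differed by 2.15 on array 4 but by 0.07 and −0.07 on arrays 1 and 2. RPL4A and RPL4B differed by −2.42 on array 4, the only array they share. On arrays 1 and 2 no RPL pair differed by 1 or more on the log2 scale. The widest RPL gaps there were −0.86 for RPL43A against RPL43B on array 1, and −0.64 for RPL26A against RPL26B on array 2. RPP1A and RPP1B differed by −1.36 on array 1.

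**Figure D3:**
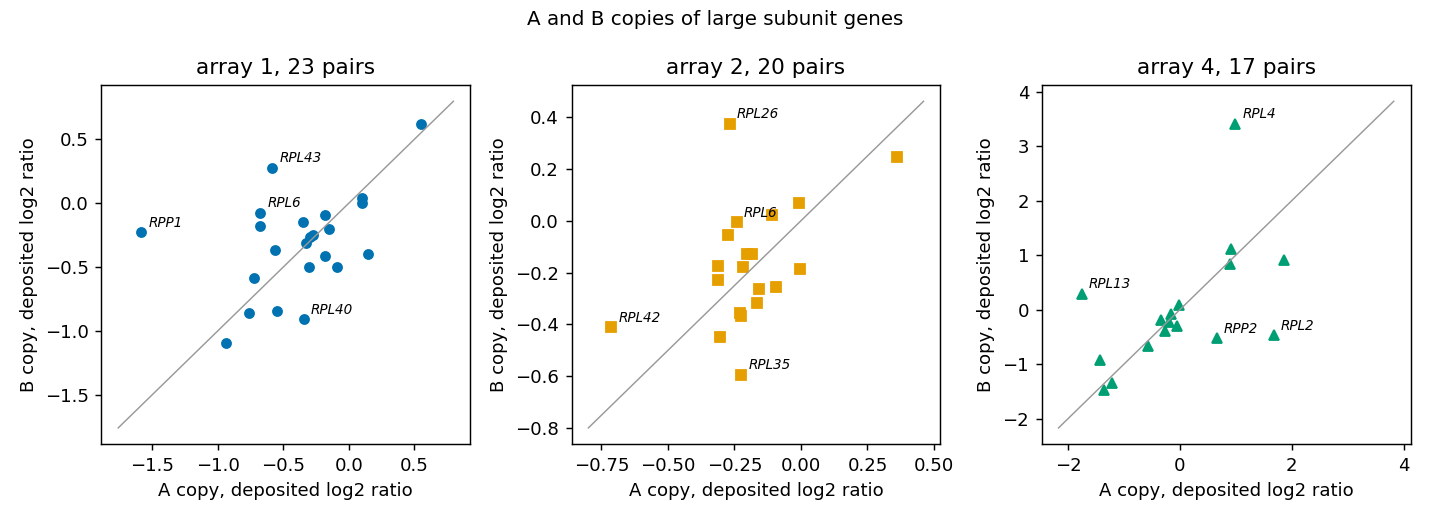
Deposited log2 ratio of the B copy against the A copy on arrays 1, 2 and 4, 1 point per pair, with the line of equal values and names at the 4 widest pairs of each panel. On array 4 most pairs lie near the line while RPL4, RPL2, RPL13 and RPP2 differ by −2.42, 2.15, −2.05 and 1.18 (A minus B).

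On array 4 the values followed coding length among the members without an intron. For the members as a whole only gene length with introns was available, and the values on array 4 did not follow that. The members without an intron are genes known to have no intron in the coding region, for which the gene length in the RefSeq table is the coding length. Over these genes Spearman's rho between value and length was 0.896 on array 4 (23 genes), 0.661 on array 1 (21 genes) and 0.182 on array 2 (20 genes). These are correlations across genes of 1 array each, and the copies among them are not independent. Over all members with a value, intron-containing ones included with their introns, rho was 0.003 on array 4 (50 genes), 0.196 on array 1 (65 genes) and −0.115 on array 2 (61 genes). Over all ORFs with a length, rho was 0.047 for array 4, 0.347 for array 1 and 0.392 for array 2. All 12 intron-free members of 600 bases or longer were positive on array 4, from 0.83 to 4.00, while 2 of the 11 shorter ones were, with a range of −0.60 to 0.66. The length of 600 bases was chosen after the values were seen. On array 1, 5 of 10 of the longer members were positive, and none of 11 of the shorter ones. Members with an intron had a median of −1.28 on array 4 with 3 of 27 positive, against 0.83 and 14 of 23 for those without. On array 1 these medians were −0.30 and −0.18, and on array 2 they were −0.25 and −0.04. With the trend of all ORFs with length removed from each array, the members' fitted median was 0.28, with 33 of 44 above 0, beside 57.7% of all ORFs. What part of the order of the members on array 4 comes with length was not tested.

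**Figure D4:**
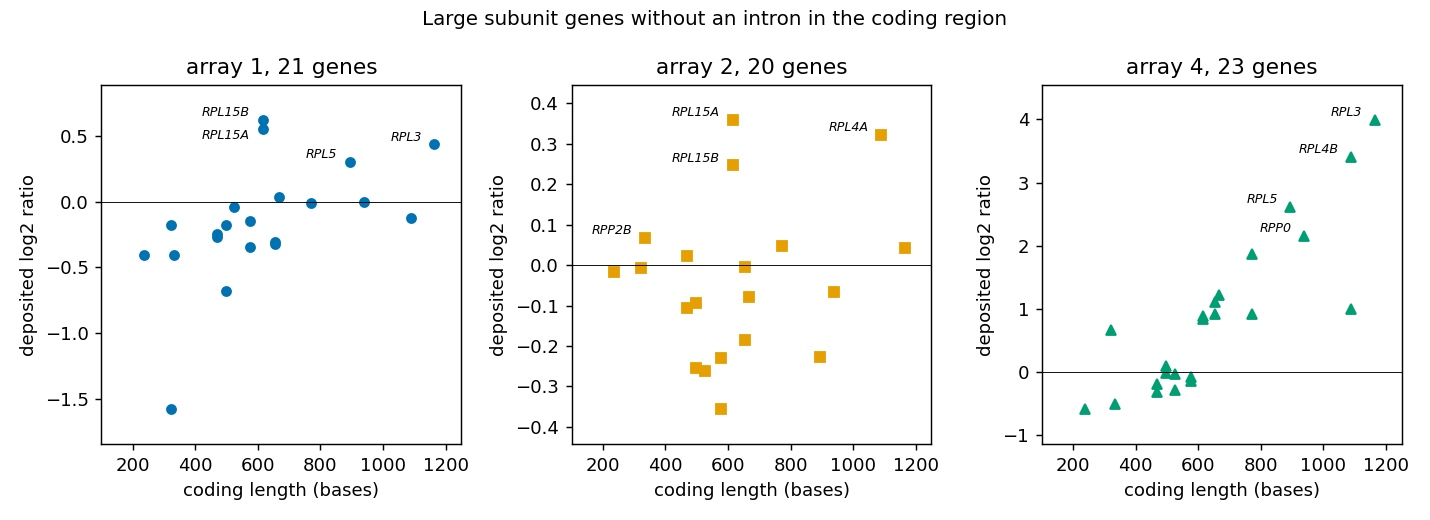
Deposited log2 ratio against coding length in bases for large subunit genes without an intron in the coding region, on arrays 1, 2 and 4. On array 4 the 12 genes of 600 bases or longer lie between 0.83 and 4.00, and the 11 shorter ones lie between −0.60 and 0.66.

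Members without a value on array 4 had lower values on the other arrays. The 17 measured on arrays 1 and 2 but not on 4 had a median of −0.58 on array 1, against −0.20 for the 44 measured on all 3, and −0.27 on array 2, against −0.17. None of the 17 was positive on array 2, and 2 were positive on array 1, RPL7A at 0.10 and RPL7B at 0.002. Of all 2095 ORFs on arrays 1 and 2 but not on 4, 690 were positive on array 2 and 873 on array 1. Of all members, 9 of 61 were positive on array 2 and 12 of 65 on array 1. Among all ORFs the order on array 1 was the other way, with a median of −0.14 for those without a value on array 4 and −0.21 for those with one. On array 2 all ORFs had the same order as the members, with medians of −0.15 and −0.11. The fitted values of the 44 therefore leave out these 17 lower members. They also leave out the 5 members on array 4 only, which lay on both sides of 0. These were RPL4B at 3.41, RPL8A at 1.86, RPL11B at −0.29, RPL34A at −1.43 and RPL31A at −2.18.

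Members that lie side by side in the genome did not have the same values. RPL13A and RPP1A, neighbours on chromosome IV, had −0.56 and −1.58 on array 1. RPL24A and RPL30, neighbours on chromosome VII, had −0.27 and −1.03 on array 1 and −0.11 and −0.39 on array 2.

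The values of the large subunit genes lay close to those of the small subunit genes. Of the 56 small subunit genes, 35 were on every array, 7 with a fitted value above 0 and 28 below, with a median of −0.26, against −0.21 for the large subunit. Array medians were −0.26, −0.22 and −0.28 for the large and −0.27, −0.21 and −0.46 for the small subunit on arrays 1, 2 and 4. The highest of the small subunit genes were RPS8A (0.21) and RPS2 (0.14), and the lowest were RPS29A (−1.25) and RPS28B (−1.19). The 41 genes of the mitochondrial large subunit had medians of −0.64 on array 1 and −0.24 on array 2, and 3 of them were on every array, at −0.75 to −1.02. No difference between these lists was tested.

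Genes for assembly and export of the 60S subunit had a median above 0 on array 1 and below 0 on arrays 2 and 4. On array 1, 41 of 56 were positive with a median of 0.37, beside 12 of 65 with a median of −0.26 for the large subunit proteins. On array 2, 15 of 51 were positive with a median of −0.21, and on array 4 none of 10 was positive, with a median of −1.28. Of the 8 on every array, 0 were called, and 3 had a fitted value above 0. The highest were NOG1 (0.36), a GTPase of nuclear precursors, and TIF6 (0.22), which keeps the subunits apart, and the lowest were ERB1 (−1.03) and LOC1 (−0.99).

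Chaperones and regulators of ribosomal proteins were measured thinly. Of 14 chaperones of ribosomal and newly made proteins, 4 were on every array, with a median of 0.05. SSB2, a ribosome-bound Hsp70, was highest at 0.88, with 0.48, 0.02 and 2.54 on arrays 1, 2 and 4, and ZUO1, its J-protein partner, had 0.22. YAR1, which escorts a small subunit protein, was lowest at −0.39 and EGD2 followed at −0.12. RRB1, which escorts Rpl3, had −0.71 on array 1 only, and SYO1, which imports Rpl5 and Rpl11 together, had 0.62 and 0.03 on arrays 1 and 2. Of 19 regulators, 5 were on every array, 1 with a fitted value above 0 and 4 below. RAP1 and SFP1 were empty on all 3 arrays, FHL1 had −0.32 on array 2 only, and IFH1 had 0.51 and 0.09 on arrays 1 and 2. HMO1, which binds many ribosomal protein promoters, was highest at 0.08 and KOG1 followed at −0.30, while TOR1 was lowest at −1.01 and CRF1, a corepressor of these genes, had −0.49. None of the chaperones or regulators on every array was called.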

How the data were processed

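Labelled cDNA of treated and untreated cells (CyScribe kit) was hybridized together on 2-colour arrays, per the labels' protocols. The authors' deposited table holds 1 log2 ratio per ORF and array. The sources used here give no scanner, background correction, normalization, filter or ratio direction. That the logarithm has base 2 follows from the numbers themselves, since powers of 2 of 100% of the values on each array are multiples of 0.0001 (tolerance 0.01 of that step).

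Symbols came from RefSeq (assembly R64), where ORF names matched as follows: 5654 by locus tag, 57 by synonym and 496 not. Its lengths include introns. The intron-free members were listed from general knowledge. All 723 ORFs with a value on each of the 3 arrays were fitted with limma 3.58.1 in R 4.3.3 (caspofungin and dye terms, eBayes, Benjamini-Hochberg adjustment), tested on simulated data beforehand. The simulation gave all 3 arrays the same noise, so it does not cover the unequal spread of the deposited arrays. Other tables used Python 3.11.15 and pandas 2.3.3. The 3 arrays limit the precision, and the depth of an array is not a count. Members and lists were chosen with earlier results of these data known. Fitted values are printed for the 6 highest and 6 lowest members, for both copies of the 3 widest and 3 closest pairs, and for the 2 highest and 2 lowest of each other list. The alternatives were other normalizations, groupings of arrays, filters, a length correction, and leaving out each array.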

Additional observations from a re-analysis of the deposited data

How the results depend on the processing

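The count of 0 called large subunit genes was kept under all 13 alternative fits and at an adjusted p under 0.10. At an unadjusted p under 0.05 it ran from 0 to 7 over the fits. The 7 of 44 came after quantile normalization, where 228 of all 723 ORFs passed the same limit, a larger share. The 2 ORFs called in the whole table were 0 without the dye term, with arrays 1 and 2 averaged as 1 culture, with array 1 turned to the other sign, after median centring alone or with equal spread, after quantile normalization, with ORFs on array 1 and at least 1 other, and with the length trend removed. They were 12 with arrays 1 and 4 averaged, 23 at an unadjusted p under 0.05, and 0 to 25 over the fits on 2 arrays, with 25 without array 4, where 2818 ORFs could be tested. The members' median of −0.21 turned to 0.18 after median centring, 0.10 with equal spread and 0.28 with the length trend removed. The medians of all ORFs tested were then 0.03, 0.02 and 0.12. Centring moves every value of an array upward, because each array's median lies below 0, while the length step subtracts an amount that varies with gene length. It was −0.009 with array 1 turned, −0.35 after quantile normalization and −0.33 over the 62 members on array 1 and at least 1 other. The 12 members above 0 became 22 with array 1 turned, 32, 31 and 33 after centring, equal spread and the length correction, and 6 to 14 on 2 arrays, with 6 of 61 without array 4. The copy difference of 0.13 was 0.10 with arrays 1 and 4 averaged, 0.12 with array 1 turned, 0.15 with equal spread, 0.18 after quantile normalization, 0.17 with ORFs on array 1 and at least 1 other, 0.082 with the length trend removed, and 0.093 to 0.13 on 2 arrays.

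Of 260 alternative values for the 20 named genes, 30 changed sign and none was called. With array 1 turned, RPL15B was −0.042, RPL26B 0.030, RPP2B 0.092, RPL13B 0.21 and RPL17B 0.001. After median centring, RPP2B was 0.068, RPL2B 0.26, RPL13B 0.24, RPL17A 0.21 and RPL17B 0.19, and with equal spread they were 0.10, 0.22, 0.09, 0.11 and 0.10. With the length trend removed, RPP2B was 0.59, RPL2B 0.094, RPL13B 0.19, RPL17A 0.28 and RPL17B 0.25. After quantile normalization, RPP2A was −0.094, RPL1A −0.16 and RPL1B −0.21. RPL13B was 0.013 with arrays 1 and 2 averaged. Over the fits that leave out an array, the values ran from −0.035 (without array 4) to 1.07 for RPP0, from −0.049 (without array 4) to 0.89 for RPL2A, from −0.092 (without array 4) to 0.33 for RPP2A, from −0.16 (without array 4) to 0.45 for RPL1A, from −0.25 (without array 4) to 0.46 for RPL1B, and from −0.27 to 0.060 (without array 1) for RPL13B. The cause of these changes was not tested. Each array is already a ratio between treated and untreated RNA of the same culture, so its values hold that pairing. No further paired analysis was possible because all 3 arrays form 1 group. The deposited ratios carry no signal over background, so what dim spots limit is unknown.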
